A study of Mus musculus with 8 samples.

Results

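The 10 genes described here encode the Atg8 proteins of the autophagosome and part of the core machinery of autophagy: Gabarap, Gabarapl1, Gabarapl2, Map1lc3a, Map1lc3b, Sqstm1, Becn1, Atg5, Atg7 and Ulk1. They were read by all probe sets that the platform annotation pairs with exactly 1 of these genes, 27 of 45037 probe sets that are not controls. Of these 27, 26 passed the filter on dim probe sets (4 or more arrays of 8 reaching a log2 value of 4), and the 1 left out was the dimmest of the 4 Atg7 probe sets. All 10 genes had at least 1 probe set that passed. By the annotation Gabarap, Sqstm1 and Becn1 lie on chromosome 11, Gabarapl1 and Atg7 on 6, Gabarapl2 and Map1lc3b on 8, Map1lc3a on 2, Atg5 on 10 and Ulk1 on 5.

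Total RNA of 2 mouse cell lines was measured on Affymetrix whole-genome expression arrays, with 4 samples of SThdh111/111 and 4 of SThdh7/7. Lines of these names derive from the striatum of embryonic Huntingtin knock-in mice, and both carry a temperature-sensitive viral large T antigen that makes them grow without limit. The numbers in the names stand for the polyglutamine lengths of both Htt alleles, 111 in SThdh111/111 and 7 in SThdh7/7. The samples had no treatment in the labels. Each genotype is a single line, so the genotype and any other difference between the lines cannot be told apart. Whether the 4 samples of a line were grown as separate cultures is not in the labels, so the p-values speak of the spread among these samples alone.

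In macroautophagy a double membrane closes around cytoplasm and delivers it to the lysosome. The kinase ULK1 starts the process, and a lipid kinase complex that holds Beclin 1 marks the site where the membrane forms. ATG7 activates ATG12, which is joined to ATG5, and the Atg8 proteins of the LC3 and GABARAP subfamilies, which are joined to a lipid of the growing membrane. Receptors such as p62, the product of Sqstm1, bind cargo and Atg8 proteins together. Neurons depend on this route to clear aggregated protein, expanded huntingtin included. RNA levels on an array say nothing of how much cargo is degraded.

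Transcripts of 4 of the 5 Atg8 genes were higher in SThdh111/111. At the brightest probe set of each gene, Gabarapl1, Gabarapl2, Map1lc3a and Map1lc3b rose and Gabarap did not pass the test, with differences of 1.50, 0.59, 0.80, 0.81 and 0.15 on the log2 scale. Of the other 5 genes, Sqstm1 and Atg7 fell and Becn1, Atg5 and Ulk1 did not pass the test. The 2 falls did not pass once every array's median was set to the same value (limma adjusted p = 0.39 and 0.11), whereas the 4 rises did. The median difference was 0.80 over the 5 Atg8 genes and -0.29 over the other 5, against -0.09 over all 17389 named genes at their brightest probe set. Differences are SThdh111/111 minus SThdh7/7 throughout. In RNA of whole cultures, more RNA per cell and more cells of a type cannot be told apart.

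A probe set was called when its adjusted p was under 0.05, from limma's moderated test over 41409 kept probe sets with Benjamini-Hochberg adjustment. Among the 10 genes 4 rose and 2 fell, and of all genes 13.1% rose and 15.9% fell at their brightest probe set. Of the 26 kept probe sets 9 rose and 4 fell, against 9.87% and 12.6% of all kept probe sets. The share of lower calls, 4 of 26, was thus near that of all probe sets. Among all probe sets with a mean log2 intensity of at least 8 the shares called were 20% higher and 23.9% lower. The 4 SThdh111/111 arrays lay entirely above the 4 SThdh7/7 arrays at 11 of the 26 probe sets, and entirely below them at 2. Over all kept probe sets that happened at 11% and at 14.1%. The calls of lower probe sets moved with median centring. Over all kept probe sets the median difference was -0.12 as deposited and 0.04 once every array's median was set to the same value. Those array medians were intensities of 136.2 to 174.0, near the background floor of 129.8 described below. After centring 9 of the 26 were called higher and 0 lower by limma's test. The share of lower calls among all calls was then 39.5%, against 56.0% as deposited and 53.6% after quantile normalization.

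Pairwise correlations of log2 intensity ran from 0.922 to 0.924 among SThdh111/111 arrays, from 0.906 to 0.927 among SThdh7/7 arrays and from 0.866 to 0.885 across the lines. SThdh7/7 samples 1 and 2 stood apart in overall intensity: the array medians were 136.2 to 147.0 in SThdh111/111, against 173.9, 174.0, 137.7 and 139.7 in SThdh7/7. The 95th percentile of the bacterial controls, a measure of background, was an intensity of 72.0 to 77.5 in SThdh111/111. In SThdh7/7 samples 1 to 4 it was 126.5, 129.8, 98.6 and 105.1. The highest of these, 7.02 on the log2 scale, serves for all arrays as a floor below which a value is not told from background. This floor lies above the background of every SThdh111/111 array. Both lines showed actin probes of the 3′ end at 0.09 to 0.30 above those of the 5′ end on the log2 scale, with the ranges of the lines overlapping. For Gapdh the 3′ end minus the 5′ end was -0.56 to -0.47 in SThdh111/111 and -0.49 to -0.41 in SThdh7/7. Htt differed by -0.42 ± 0.16 (SE; limma adjusted p = 0.084) at its brightest probe set, which does not check the length of the stretch. That difference passed when only probe sets with a mean log2 of at least 8 were tested (limma adjusted p = 0.045). A dimmer Htt probe set was called lower (difference -1.09; limma adjusted p = 0.024). Its mean was 8.07 in SThdh7/7 but 6.99, below the floor, in SThdh111/111, so the size is uncertain. The remaining Htt probe sets were not called (limma adjusted p = 0.51 and 0.81). Of 11 striatal projection neuron markers 2 rose, Penk and Foxp1 (differences 2.96 and 0.29), and 2 fell, Meis2 and Rgs9 (differences -1.78 and -0.71). Ppp1r1b, Drd1 and Gad1 lay below the floor on all arrays, while Foxp1, Meis2 and Rgs9 lay above it on all. Of 8 fibroblast and mesenchymal markers 5 rose and 1 fell. Their summed intensity was 93520 to 109000 in SThdh111/111 and 26555 to 27535 in SThdh7/7, with Dcn and Lum below the floor on all SThdh7/7 arrays. Col1a1, Col1a2 and Col3a1 also rose but were above the floor on every SThdh7/7 array. Acta2 was the marker that fell (difference -1.76), and Pdgfrb was not called (difference -0.04). Of 7 neural progenitor markers 0 rose and 3 fell: Sox2 and Nes differed by -2.06 and -1.38, and Pax6 reached the floor on no SThdh111/111 array but on every SThdh7/7 array. The summed intensity of the 7 was 46342 to 50416 in SThdh111/111 and 48688 to 54609 in SThdh7/7. That sum was mostly Vim, at a mean log2 of 15.50 in both lines (difference 0.005; limma adjusted p = 0.97). The median difference of the 7 was -1.38. Of 10 pan-neuronal markers 0 rose and 2 fell, with sums of 2680 to 2962 in SThdh111/111 and 3562 to 3892 in SThdh7/7. Of these 2, Stmn2 exceeded the floor on no SThdh111/111 array and on 1 SThdh7/7 array. The other, Map2, was the brightest of the 10, at a mean log2 of 10.34 in SThdh111/111 and 10.86 in SThdh7/7. Eno2, the next brightest, was not called (difference 0.06; limma adjusted p = 0.74). Snap25 and Tubb3 lay below the floor on all arrays. Of markers of other cells, 2 of 7 astrocyte genes rose and 1 fell, and of 8 microglia and macrophage genes 1 rose, Csf1r, and 1 fell, Cd68. The summed intensity of these 8 was 1419 to 1672 in SThdh111/111 and 2164 to 2755 in SThdh7/7, but their median difference was 0.33. Cd68 was the brightest of the 8 in SThdh7/7, at a mean log2 of 10.56 there and 8.80 in SThdh111/111. Below the floor on all arrays were 3 of the 8. Of 5 endothelial and 4 oligodendrocyte markers 1 each fell and 0 rose. Of all genes 13.1% rose and 15.9% fell at their brightest probe set, the background for these marker counts. The part of such marker differences in the Atg8 values was not tested.

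**Figure D1:**
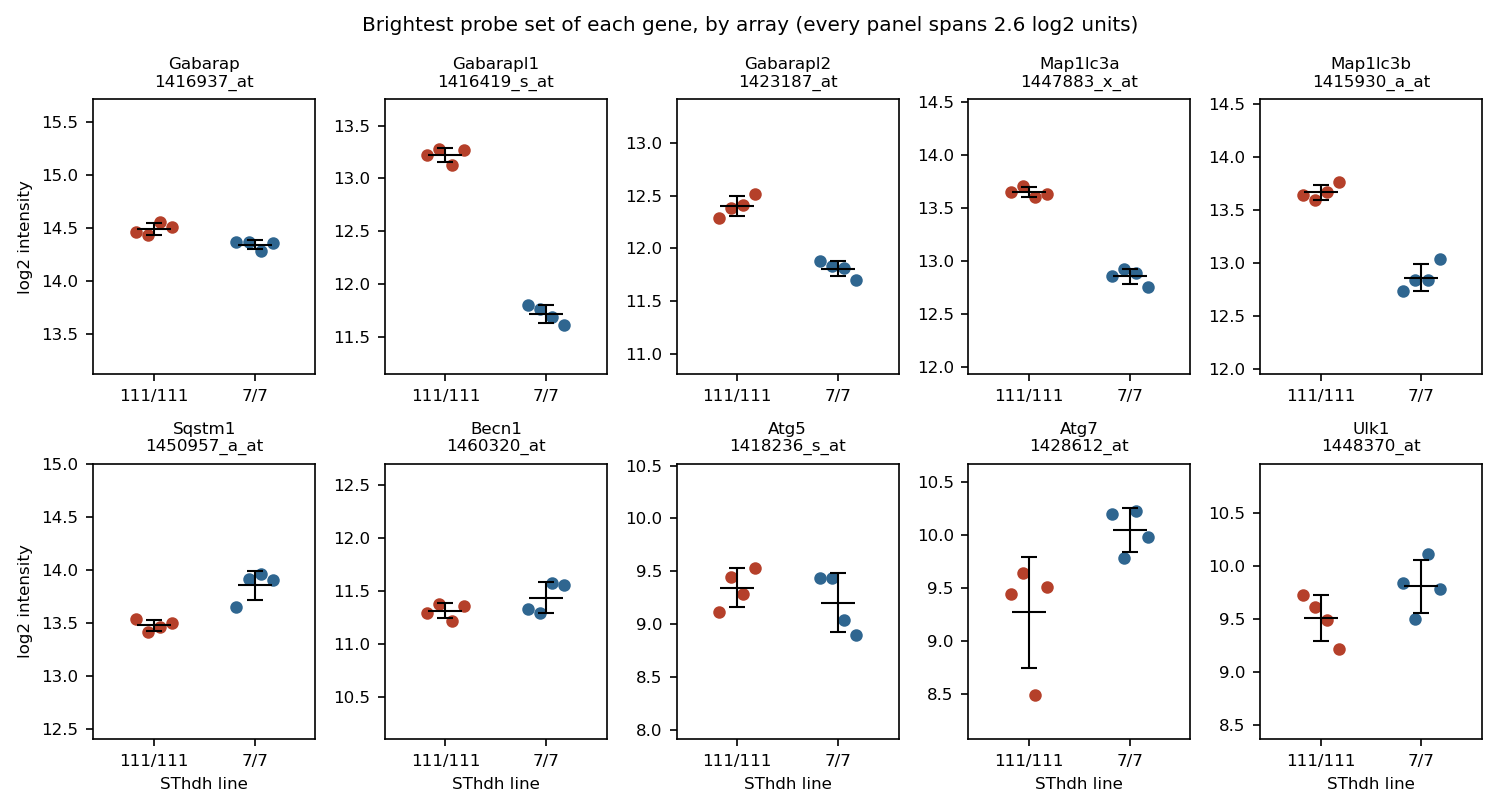
Log2 intensity on each array at the brightest probe set of each of the 10 genes, with SThdh111/111 left and SThdh7/7 right in each panel; points are arrays, and bars give the mean and SD of 4. The lines did not overlap at the 5 Atg8 genes, where SThdh111/111 was higher, nor at Sqstm1 and Atg7, where it was lower.

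Gabarapl1 encodes a GABARAP-subfamily protein that acts in the late growth and closure of the autophagosome, and it had the largest difference of the 10 genes at their brightest probe sets. Its probe set 1416419_s_at read 13.22, 13.27, 13.13 and 13.27 (log2 intensity) on the SThdh111/111 arrays, against 11.80, 11.77, 11.69 and 11.61 on the SThdh7/7 arrays. The lowest SThdh111/111 array was thus well above the highest SThdh7/7 array. The means were 13.22 ± 0.07 in SThdh111/111 and 11.72 ± 0.08 in SThdh7/7 (SD, n = 4 each), a rise of 1.50 ± 0.06 (SE; limma adjusted p = 7.9e-10), or 2.84-fold. The second probe set, 1416418_at, read 12.35, 12.37, 12.18 and 12.33 in SThdh111/111, against 10.61, 10.50, 10.68 and 10.89 in SThdh7/7. It gave the same direction without overlap, with a rise of 1.64 ± 0.09 (SE; limma adjusted p = 6.8e-09).

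Map1lc3b encodes LC3B, the Atg8 protein most used to mark autophagosomes. Its brightest probe set, 1415930_a_at, read 13.64, 13.60, 13.67 and 13.77 in SThdh111/111, against 12.73, 12.83, 12.84 and 13.04 in SThdh7/7. The groups did not overlap, and the rise was 0.81 ± 0.07 (SE; limma adjusted p = 1.3e-06), or 1.75-fold. Probe sets 1415928_a_at and 1415929_at rose by nearly as much, 0.76 ± 0.07 and 0.74 ± 0.06 (SE). A 4th, 1428024_at, lay between 3.68 and 6.03 on all 8 arrays, below the floor, so no fold is given for it. These 4 probe sets report on the same gene and are not separate evidence.

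Map1lc3a encodes LC3A, a close relative of LC3B. Probe set 1447883_x_at read 13.65, 13.71, 13.61 and 13.63 in SThdh111/111, against 12.86, 12.92, 12.88 and 12.75 in SThdh7/7. Every SThdh111/111 array was higher, by a mean of 0.80 ± 0.06 (SE; limma adjusted p = 2.1e-07), or 1.74-fold. The name ending of this probe set marks probes that can match several transcripts. The other probe set, 1451290_at, has no such ending and rose by 0.49 ± 0.08 (SE; limma adjusted p = 6.6e-04), again without overlap.

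Gabarapl2 encodes GATE-16, which also serves in transport within the Golgi. Probe set 1423187_at read 12.29, 12.38, 12.41 and 12.52 in SThdh111/111, against 11.88, 11.84, 11.82 and 11.71 in SThdh7/7. The groups did not overlap, and the rise was 0.59 ± 0.07 (SE; limma adjusted p = 1.8e-05), or 1.50-fold. The second probe set, 1441376_at, was near the floor at 7.08 to 7.65 in SThdh111/111 and 7.22 to 7.48 in SThdh7/7. There the lines overlapped, with a difference of -0.07 and a 95% interval of -0.61 to 0.48.

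Gabarap, the founding member of its subfamily, did not pass the test. Its only probe set read 14.46, 14.43, 14.56 and 14.51 in SThdh111/111, against 14.37, 14.37, 14.28 and 14.36 in SThdh7/7. The arrays of the lines did not overlap, but the difference of 0.15 ± 0.06 (SE) had a limma adjusted p of 0.084 and a 95% interval of 0.03 to 0.27. The difference turned to -0.10 after quantile normalization, and passed the test when only probe sets with a mean log2 of at least 8 were tested (adjusted p = 0.034).

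**Figure D2:**
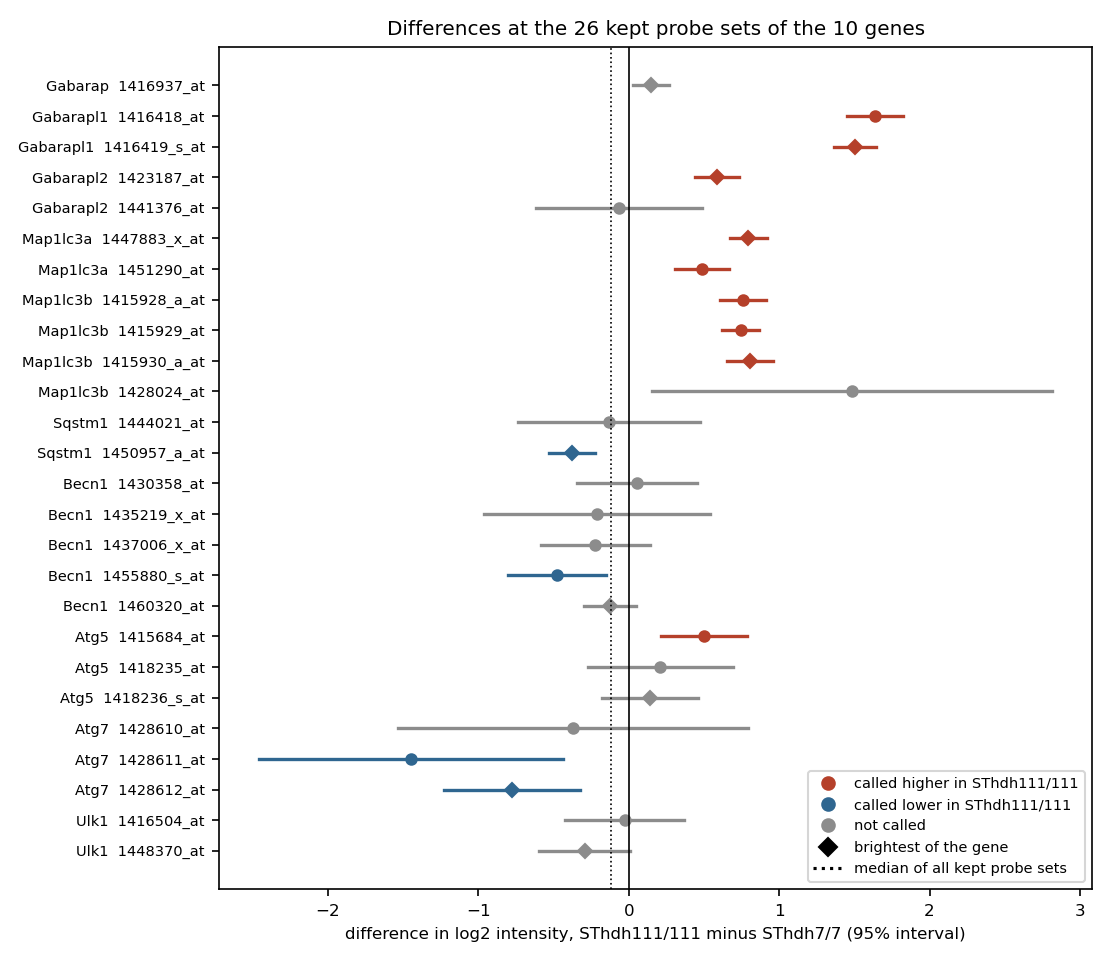
Difference in log2 intensity, SThdh111/111 minus SThdh7/7, with its 95% interval at the 26 kept probe sets; diamonds mark the brightest probe set of a gene, and the dotted line is the median of all kept probe sets. The called Atg8 probe sets lie between 0.49 and 1.64, and the brightest ones of Sqstm1 and Atg7 at -0.38 and -0.78. Atg7 1428611_at did not reach the floor on any SThdh111/111 array, so its plotted difference is not taken as a measured size.

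How far the Atg8 genes and Sqstm1 moved apart was measured within each array, where the scaling of whole arrays cancels. For each of the 15 pairs of these 6 genes the log2 intensity of one brightest probe set was subtracted from that of the other, and the lines were compared by a two-sided exact permutation test over the 70 splits of 8 arrays. These pairs were chosen after the values were seen. The difference between the lines passed in 13 of 15 pairs (Benjamini-Hochberg adjusted p = 0.033 in each), with raw p at 0.029, the smallest that 4 against 4 arrays can give. For each Atg8 gene against Sqstm1 this was fixed in advance, because the lines did not overlap at either gene and differed in opposite directions. The 15 pairs also share 6 genes, so the number that passed is no separate evidence. A difference between the lines in such a pair shows unequal change at 2 probe sets, which may differ in how they respond to RNA.

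Gabarapl1 minus Gabarap was -1.27 ± 0.11 in SThdh111/111 and -2.63 ± 0.08 in SThdh7/7 (SD, n = 4 each). The gap thus changed by 1.36, and it changed by 0.92 for Gabarapl1 against Gabarapl2, 0.71 against Map1lc3a and 0.70 against Map1lc3b. These pairs restate the sizes already given and are no separate evidence of their order. Map1lc3b and Map1lc3a kept nearly the same distance in both lines, 0.02 ± 0.10 in SThdh111/111 and 0.01 ± 0.19 in SThdh7/7 (SD, n = 4 each; exact permutation adjusted p = 0.91). The other pair that did not pass was Map1lc3b against Gabarapl2 (change 0.22; exact permutation adjusted p = 0.12).

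**Figure D3:**
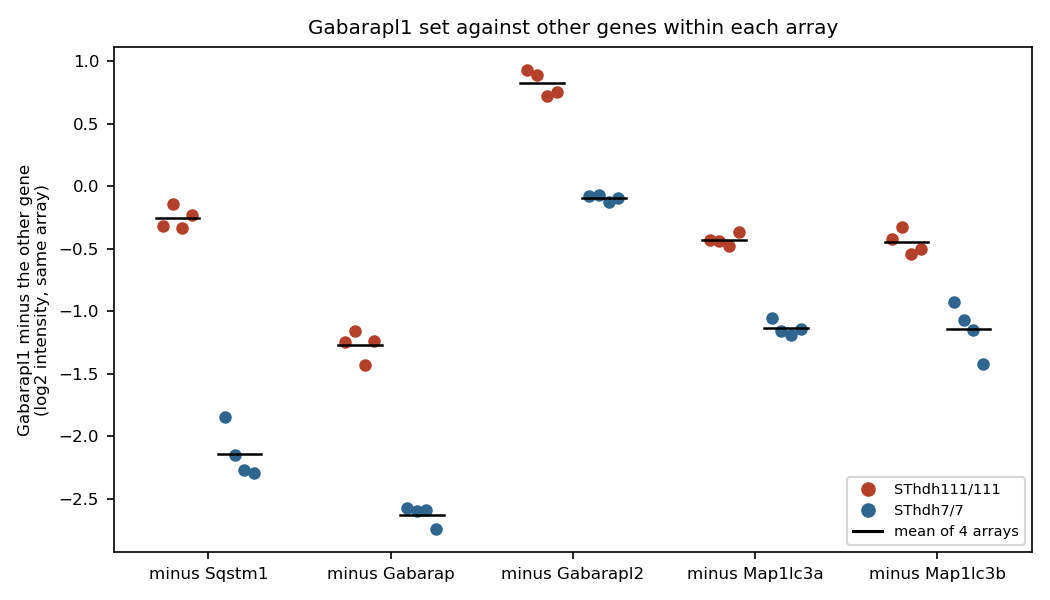
Log2 intensity of Gabarapl1 minus that of another gene on the same array, at the brightest probe set of each; points are arrays, SThdh111/111 left of SThdh7/7, and lines are means of 4. SThdh111/111 and SThdh7/7 do not overlap in any of the 5 pairs shown, and the mean gap to Sqstm1 was -0.25 in SThdh111/111 and -2.14 in SThdh7/7.

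Sqstm1 encodes p62, an autophagy receptor that binds ubiquitin and Atg8 proteins and is itself degraded in the process. Its bright probe set, 1450957_a_at, read 13.54, 13.41, 13.46 and 13.50 in SThdh111/111, against 13.65, 13.91, 13.96 and 13.90 in SThdh7/7. All SThdh111/111 arrays were lower, by a mean difference of -0.38 ± 0.07 (SE; limma adjusted p = 0.0014). The size moved with the scaling, to -0.23 after centring (adjusted p = 0.39) and to -0.63 after quantile normalization. The call was also lost without an intensity trend in the fit (adjusted p = 0.053). The dim probe set 1444021_at differed by -0.13 (limma adjusted p = 0.81).

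RefSeq promoter entries of GRCm38.p6 were at hand for 8 of the 10 genes, and not for Map1lc3a and Becn1. The 250 bases before the start site are printed, 5′ to 3′, for the 3 Atg8 genes that rose and have an entry, and for Sqstm1, which fell, so that the genes that moved apart can be read side by side. Capitals mark GGGCGG, the core of a GC box, on either strand. The entries are at chr6:129532942-129533191 (plus strand), chr8:111940453-111940702 (plus strand), chr8:121590188-121590437 (plus strand) and chr11:50210821-50211070 (minus strand).
Gabarapl1: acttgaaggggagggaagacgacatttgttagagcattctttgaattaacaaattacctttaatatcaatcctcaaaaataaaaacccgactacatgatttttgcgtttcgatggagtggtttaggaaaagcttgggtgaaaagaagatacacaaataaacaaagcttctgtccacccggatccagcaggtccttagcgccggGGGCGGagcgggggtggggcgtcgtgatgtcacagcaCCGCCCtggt
Gabarapl2: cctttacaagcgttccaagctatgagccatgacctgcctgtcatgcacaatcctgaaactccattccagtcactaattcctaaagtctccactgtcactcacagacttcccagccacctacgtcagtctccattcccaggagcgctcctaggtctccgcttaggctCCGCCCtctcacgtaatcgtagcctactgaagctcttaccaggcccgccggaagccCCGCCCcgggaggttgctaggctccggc
Map1lc3b: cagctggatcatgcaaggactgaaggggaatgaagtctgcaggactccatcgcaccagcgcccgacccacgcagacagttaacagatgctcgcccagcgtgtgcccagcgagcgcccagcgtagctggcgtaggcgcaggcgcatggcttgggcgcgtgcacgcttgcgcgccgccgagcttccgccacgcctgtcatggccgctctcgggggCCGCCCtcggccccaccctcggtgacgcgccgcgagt
Sqstm1: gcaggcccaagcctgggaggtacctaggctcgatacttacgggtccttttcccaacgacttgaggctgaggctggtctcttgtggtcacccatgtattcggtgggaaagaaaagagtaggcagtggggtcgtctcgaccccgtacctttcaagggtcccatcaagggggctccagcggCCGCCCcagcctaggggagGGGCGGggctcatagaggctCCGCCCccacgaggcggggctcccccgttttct

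GGGCGG was found in 6 of the 8 windows, these 4 and those of Atg5 and Ulk1, and in 32.7% of all 32851 promoter windows of the same length. So it was present in genes that rose, in one that fell and in Ulk1, which was not called. Other motifs searched on both strands were CACGTG, an E-box bound by TFEB, the transcription factor of lysosomal and autophagy genes; GTAAACA, bound by FoxO factors; TGACNNNGC, an antioxidant response element; TGACGTCA, the cAMP response element; and TATAAA. Found in 6.02% of all windows, CACGTG was in those of Atg5 and Atg7, and the other 4 motifs were in none of the 8. No match overlapped another. The stretches around the E-box, in capitals with 40 bases in all, lie at chr10:44268299-44268338 (plus strand) and chr6:114670947-114670986 (plus strand), where it begins 14 and 132 bases before the start site.
Atg5: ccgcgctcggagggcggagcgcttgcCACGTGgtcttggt
Atg7: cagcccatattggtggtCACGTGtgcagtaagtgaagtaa

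Atg7 encodes the enzyme that activates both ATG12 and the Atg8 proteins. The brightest, Atg7 1428612_at, read 9.44, 9.64, 8.49 and 9.51 in SThdh111/111, against 10.20, 9.78, 10.23 and 9.98 in SThdh7/7. The lines did not overlap, though SThdh111/111 sample 3 was far below the other 3. The mean difference was -0.78 ± 0.21 (SE; limma adjusted p = 0.016), and -0.52 without that sample (adjusted p = 0.011). The call was lost after centring (-0.62, adjusted p = 0.11), without the intensity trend (adjusted p = 0.098) and without SThdh7/7 samples 1 and 2 (-0.83, adjusted p = 0.054). Probe set 1428611_at did not reach the floor on any SThdh111/111 array and exceeded it on 3 of 4 SThdh7/7 arrays. It was called lower (limma adjusted p = 0.04), but that test used values below the floor in both lines, so no fold is given. Its lines overlapped, and without SThdh7/7 sample 4 the difference had an adjusted p of 0.13. The other 2 Atg7 probe sets were dim: 1428610_at was not called, and 1446633_at was the one left out.

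Atg5 encodes the partner of ATG12 in the conjugate that helps to lipidate Atg8 proteins. Its 3 probe sets disagreed in size. Probe set 1415684_at read 9.63, 9.44, 9.53 and 9.47 in SThdh111/111, against 8.83, 8.85, 9.38 and 9.00 in SThdh7/7. It rose by 0.50 ± 0.13 without overlap (SE; limma adjusted p = 0.014), and the difference was 0.32 without SThdh7/7 samples 1 and 2 (adjusted p = 0.12). Probe set 1418236_s_at, which was the brightest by a narrow margin, read 9.11, 9.45, 9.29 and 9.54 in SThdh111/111, against 9.44, 9.44, 9.04 and 8.90 in SThdh7/7. There the lines overlapped, and the difference was 0.14 ± 0.15 (SE; limma adjusted p = 0.58), with SThdh7/7 samples 1 and 2 high and samples 3 and 4 low. The 3rd, 1418235_at, differed by 0.21 (limma adjusted p = 0.58).

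Becn1 encodes Beclin 1, the regulatory subunit of the lipid kinase complex. Its brightest probe set, 1460320_at, read 11.29, 11.38, 11.22 and 11.36 in SThdh111/111, against 11.33, 11.30, 11.58 and 11.55 in SThdh7/7. SThdh7/7 samples 1 and 2 lay among the SThdh111/111 arrays and samples 3 and 4 above them. The difference of -0.13 ± 0.08 (SE; limma adjusted p = 0.31) became -0.25 without samples 1 and 2 (adjusted p = 0.029), and 0.03 after centring. At probe set 1455880_s_at SThdh7/7 samples 3 and 4 were again above samples 1 and 2, with 10.77, 10.69, 10.92 and 10.88 in SThdh111/111 against 10.88, 11.05, 11.58 and 11.67 in SThdh7/7. It was called lower at -0.48 ± 0.15 (SE; limma adjusted p = 0.035), although the lines overlapped. Without samples 1 and 2 the difference was -0.81, and the call was lost when any 1 SThdh111/111 sample or SThdh7/7 sample 3 or 4 was left out. The other 3 Becn1 probe sets differed by -0.22 to 0.05 and none was called.

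Ulk1 encodes the kinase that starts autophagy, and neither of its probe sets was called. Probe set 1448370_at read 9.73, 9.61, 9.49 and 9.22 in SThdh111/111, against 9.84, 9.50, 10.11 and 9.78 in SThdh7/7. The lines overlapped, and the difference of -0.29 had a 95% interval of -0.60 to 0.01 (limma adjusted p = 0.17). At 1416504_at the difference was -0.03, with an interval of -0.42 to 0.37.

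Of 72 other autophagy genes in 6 lists by role, 70 were measured, and 14 rose, 7 fell and 49 did not pass limma's test. Of all genes 13.1% rose and 15.9% fell, a background for these counts and for those by role. Among all probe sets with a mean log2 intensity of at least 8 the shares were 20% higher and 23.9% lower. Most genes of these lists were that bright. The median difference of the 70 was 0.06, against -0.09 for all genes. After centring 13 were called higher and 1 lower, without the intensity trend 8 and 3, and without SThdh111/111 sample 2 the calls were 9 and 7. After quantile normalization they were 11 and 8, and with array weights 13 and 8. At probe sets named for a single transcript they were 9 and 6. By role, 3 rose and 1 fell among 13 genes of initiation and nucleation, 0 and 1 among 9 of membrane growth, 2 and 1 among 9 of conjugation, 3 and 1 among 9 receptors, 3 and 0 among 12 of fusion, and 3 and 3 among 18 regulators.

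The largest called difference in these 6 lists was that of Atg12, the ubiquitin-like protein joined to ATG5. It read 10.79, 10.66, 10.77 and 10.82 in SThdh111/111, against 8.63, 8.94, 9.24 and 9.02 in SThdh7/7. The rise was 1.80 ± 0.12 without overlap (SE; limma adjusted p = 8e-08), but 0.65 in the mean over its probe sets (adjusted p = 0.038). Rb1cc1, which encodes the scaffold FIP200 of the ULK1 complex, read 9.81, 9.69, 9.72 and 9.65 in SThdh111/111, against 10.96, 10.85, 10.76 and 10.83 in SThdh7/7. It fell by 1.13 on the log2 scale without overlap (limma adjusted p = 1.3e-07), and the mean over its probe sets differed by -0.67 (adjusted p = 0.13). The proteases that trim Atg8 proteins before lipidation parted: Atg4b rose by 0.49 ± 0.08 (SE) and Atg4a was lower (difference -0.70). Neither call held in the mean over the probe sets of its gene, with adjusted p of 0.66 and 0.75, and that of Atg4a was lost after centring.

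Among receptors Fundc1 and Bnip3, both of mitochondrial autophagy, rose by 0.44 ± 0.07 and 0.42 ± 0.08 (SE), while Phb2, an inner-membrane receptor of mitochondria, was lower (difference -0.33). The call of Phb2 was lost without SThdh7/7 sample 1, where the difference was -0.14 (adjusted p = 0.31), and without sample 3 or 4. Vamp8, a SNARE protein of fusion with the lysosome, rose by 0.83 ± 0.08 (SE; limma adjusted p = 2.4e-06), and Vps11, of the tethering complex, by 0.60 ± 0.16, a call lost without SThdh7/7 sample 3 (adjusted p = 0.13). Pik3r4 and Nrbf2, of the lipid kinase complex, rose by 0.63 ± 0.14 and 0.37 ± 0.12, and the call of Nrbf2 was lost in most alternative fits, as without SThdh7/7 samples 1 and 2 (0.12, adjusted p = 0.37). Wdr45, of the growing membrane, had a called difference of -0.29, which centring reduced to -0.14 (adjusted p = 0.54).

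Among regulators, Nfe2l2, the antioxidant transcription factor NRF2 that can act on Sqstm1, fell by 0.58 on the log2 scale (limma adjusted p = 5.3e-04). Keap1, its inhibitor, which p62 binds, rose by 0.54 ± 0.11 (SE; limma adjusted p = 0.0019). Trp53inp1, a stress protein that binds Atg8 proteins, rose by 0.61 ± 0.09 (SE), and Ddit4, an inhibitor of the kinase mTOR, was lower (difference -0.39). The calls of Nfe2l2 and Ddit4 were lost after centring, and that of Nfe2l2 also in the mean over its probe sets (-0.29, adjusted p = 0.46). The lysosomal-gene transcription factors Tfe3 and Tfeb, picked here after their values were seen, differed by -0.46 and 0.49, with limma adjusted p of 0.01 and 0.28.

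A further list held lysosome genes, at the receiving end of the pathway. Of 27 measured genes of 30 listed 16 rose and 2 fell, with a median difference of 0.26, against 13.1% and 15.9% of all genes. Among all probe sets with a mean log2 intensity of at least 8 the shares called were 20% higher and 23.9% lower. After centring 14 were called higher and 0 lower, without the intensity trend 11 and 0, and at probe sets named for a single transcript 10 and 1. After quantile normalization the calls were 14 and 3, and with array weights 17 and 1. Their summed intensity was 268352 to 285234 in SThdh111/111 and 194075 to 199393 in SThdh7/7. Npc2, which carries cholesterol out of the lysosome, rose by 1.01 ± 0.06 (SE; limma adjusted p = 3.3e-08). The protease gene Ctsl rose by 0.93 ± 0.06 (SE; limma adjusted p = 6.5e-08), a call lost in the mean over its probe sets (0.81, adjusted p = 0.10) and at probe sets named for a single transcript (0.69, adjusted p = 0.64). Man2b1 and Naglu, which degrade sugar chains, were lower (differences -0.30 and -0.27), and both calls were lost after centring.

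**Figure D4:**
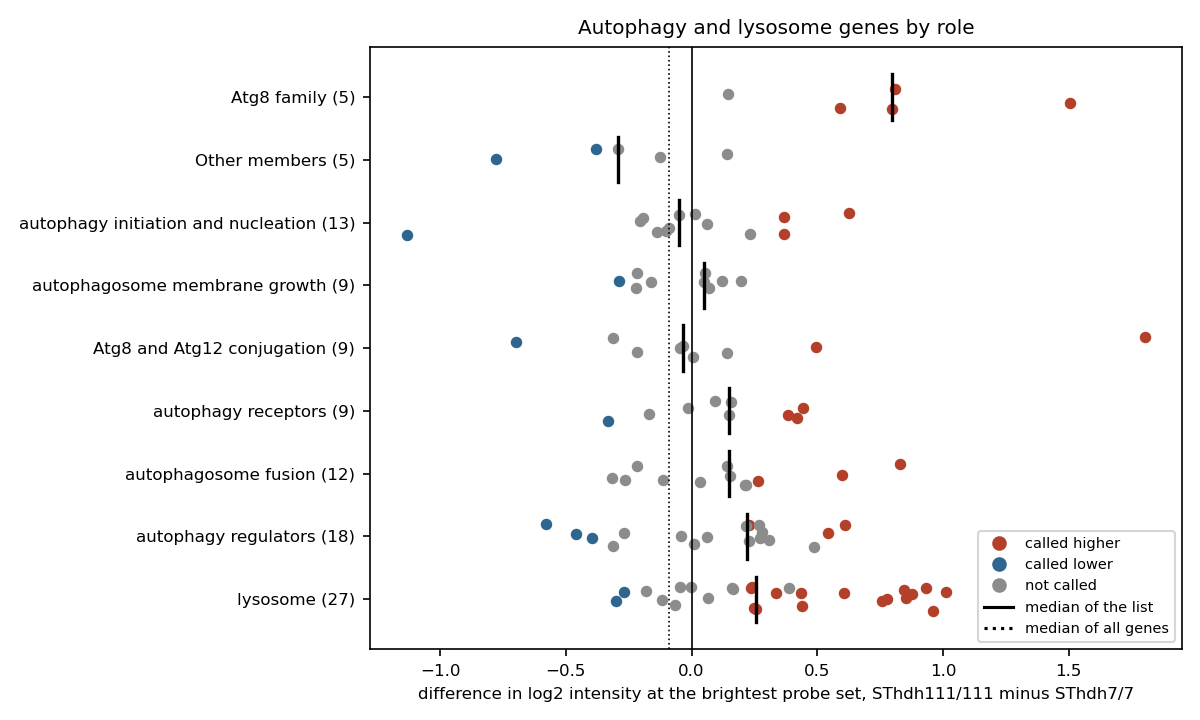
Difference in log2 intensity at the brightest probe set of each gene, SThdh111/111 minus SThdh7/7, for the 10 genes and for 7 lists by role; each point is a gene, black strokes are medians and the dotted line is the median of all genes. The median of the 5 Atg8 genes was 0.80, and those of the 7 lists ran from -0.05 to 0.26.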

How the data were processed

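Values were the authors' deposited intensities per probe set, on a linear scale. The submitters' processing notes name GCRMA with no version, but each array's mean intensity, trimmed by 2% at each end, was 500.0, as MAS5 scaling leaves it, so the tool behind the values was not settled. Log2 was taken with no further scaling. Probe sets came from GEO's platform annotation: of 45037 that are not controls, 34945 had 1 gene, 932 several and 9160 none. Samples were grouped by the labels. Probe sets that reached a log2 value of 4 on 4 or more of the 8 arrays were tested with limma 3.58.1 in R 4.3.3 (lmFit, and eBayes with an intensity trend, no covariates), with Benjamini-Hochberg adjustment over 41409 and a threshold of 0.05. The fit was tested on simulated data. A floor of 129.8 (log2 7.02) was the 95th percentile of the 27 bacterial controls on the array where it was highest. The brightest probe set by mean intensity stood for a gene. Genes named were the 10 members, Htt and, from each other list, up to 2 called genes per direction, those of lowest adjusted p. Tfe3, Tfeb and the cell type markers named with the array facts lie outside this rule and were chosen after their values were seen. The genes and lists were chosen with earlier results of these data known. Promoter sequences came from RefSeq's table for GRCm38.p6. Depth does not apply to arrays, where 4 per line limit the precision.

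Alternatives were median centring, quantile normalization, array weights, no intensity trend, other filters on dim probe sets, the mean over the probe sets of a gene, leaving out probe sets that can match several transcripts, a replicate block, leaving out each sample and leaving out SThdh7/7 samples 1 and 2. Sample numbers did not pair the lines: deviations from the line means correlated between same-numbered samples at -0.01 to 0.02.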

Additional observations from a re-analysis of the deposited data

Results flagged for a closer look

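A far sample was looked for with Dixon's test in 94 groups of 4 arrays, each line at each probe set of the 10 genes and at the brightest probe set of the other genes named by rule, and 2 were found. Chance flags about 1 group in 20. Gabarap in SThdh7/7 sample 3 had a log2 intensity of 14.28, below the 14.36 to 14.37 of the other 3 arrays of that line. Atg7 at probe set 1428610_at in SThdh7/7 sample 4 had 7.04, above the 5.42 to 5.61 of the other 3. The cause of neither was tested.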

How the results depend on the processing

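The 8 called Atg8 probe sets kept their call and direction in every one of the 19 alternative fits that tested them, and 0 of 13 called probe sets turned direction in any. Of 227 values of these 13, 25 lost the call. Without probe sets that can match several transcripts there were 6132 calls, against 9288, and 5 probe sets of the 10 genes were higher and 2 lower, with 1 gene lower. After median centring and without the intensity trend, 0 probe sets and 0 genes were lower. Leaving out 1 sample left 2 to 4 probe sets lower, with 2 without SThdh111/111 sample 2, 3 or 4 or SThdh7/7 sample 3 or 4. The replicate block gave 8828 calls, with 9 probe sets of the 10 genes higher and 3 lower, and among these genes only Atg7 1428611_at lost its call (adjusted p = 0.07); the numbers did not pair the samples, and of the SThdh111/111 samples only sample 1 correlated best with its own number.

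Differences that turned direction were all of probe sets or pairs that were not called. Ulk1 1416504_at was 0.014 with array weights, 0.15 without SThdh7/7 samples 1 and 2, 0.13 centred, 0.035 quantile normalized and -0.14 to 0.10 with 1 sample left out. Becn1 1435219_x_at was 0.40 without SThdh7/7 samples 1 and 2 and -0.57 to 0.0091 with 1 sample left out, Becn1 1430358_at was -0.027 to 0.17 and Atg7 1428610_at was -0.52 to 0.015. Gabarapl2 1441376_at was 0.088 centred and 0.093 quantile normalized, and -0.19 to 0.00018 with 1 sample left out. Sqstm1 1444021_at was 0.021 centred, 0.018 quantile normalized and -0.26 to 0.056 with 1 sample left out. Becn1 1460320_at was 0.027 centred, and Gabarap was -0.10 quantile normalized. Map1lc3b minus Map1lc3a was -0.10 without SThdh7/7 samples 1 and 2 and -0.032 to 0.11 with 1 sample left out. The cause was not tested for any of these. Probe sets below the floor limit what can be said of Atg7 1428611_at and Map1lc3b 1428024_at.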
